A study of Mus musculus with 3 samples.

Results

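The genes described here are the mouse piRNA pathway genes Piwil1, Piwil2, Piwil4, Tdrd1, Tdrd5, Tdrd6, Tdrd9, Mael, Ddx4 and Mov10l1, measured in single cells of adult testis. They were chosen by symbol: all 10 had a row of their own among the 32285 genes of the count files. The study asked what loss of Tex10, a nuclear protein known from ribosome assembly and from embryonic stem cells, does to sperm formation. Cells came from dissociated testes of adult C57BL/6N mice: 2 wildtype libraries of 1 mouse each, called wildtype replicate 1 and wildtype replicate 2, and 1 library that pooled the cells of 2 mice with a conditional Tex10 knockout. The labels name neither the Cre driver nor the deleted part of the gene, so the cell types meant to lose Tex10 are not given in the sources used here. With 1 knockout library no test between genotypes was possible, and no knockout value has a replicate.

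piRNAs are small RNAs of the germ line that guide PIWI proteins to transposon transcripts and to other RNAs. Their precursors are handed by the helicase MOV10L1 to processing on the mitochondrial surface, and Tudor domain proteins, which bind methylated arginines of the PIWI proteins, hold the parts together in the granules called nuage. In the mouse testis, PIWIL4 (MIWI2) is the nuclear PIWI protein known for the fetal wave of transposon silencing, PIWIL2 (MILI) works before and during early meiosis, and PIWIL1 (MIWI) carries the abundant pachytene piRNAs of meiotic and early haploid cells.

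Levels are given as unique molecular identifiers (UMIs, counts of distinct captured RNA molecules) of a gene per 1000000 UMIs of the same library and stage, written CPM. Because the count is of 3′ ends, a CPM was compared between stages and libraries for the same gene and not between genes. A CPM is a share of the RNA captured, so a level can move with the rest of the transcriptome. Intervals are exact 95% Poisson intervals, which cover counting error only. Wildtype means stand with their SD (n = 2), and where nothing says that mice were littermates or that libraries were made side by side, that SD is the spread between these libraries.

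The libraries held 93418341, 96001773 and 147783171 UMIs in 9967, 10153 and 12918 barcodes; here and below, 3 values in a row stand for the 2 wildtype libraries in order of their number and then the knockout library. After filtering, 7519, 7704 and 11084 barcodes were kept, and pairs of libraries shared 17 to 20 of these barcode sequences. Clusters of few UMIs, kept out of the stages, held 54.9%, 39.9% and 64.1% of them. Germ cells of named stages numbered 3235, 4442 and 3708, with median depths of 15326, 11701 and 20161 UMIs. Tex10 itself stood at 47.2, 41.9 and 36.5 CPM over these germ cells. In round spermatids it stood at 22.6, 23.9 and 16.7 CPM, so the knockout library was 71.8% of the wildtype mean there, while in spermatogonia it was 98.0%. A 3′ count does not see a deleted exon, so these levels do not tell which cells lost a working gene.

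Germ cells fell into 12 clusters, made without the 10 genes and without 23 other piRNA pathway genes, and placed in order by diffusion pseudotime. Names rest on marker genes and are like the type named: spermatogonia (772 cells), early spermatocytes 1 to 3 (968, 832 and 757 cells), late spermatocytes 1 and 2 (473 and 1112), round spermatids 1 and 2 (621 and 656) and elongating spermatids 1 to 4 (918, 1537, 1115 and 1624). Early spermatocytes 1 had the highest level of Stra8, Meioc, Rad51ap2, Prdm9 and Gm4969, which are 5 of the 6 preleptotene markers measured, and are thus preleptotene-like. Early spermatocytes 3 were deep cells, with a median of 52225 UMIs against 18381.5 in early spermatocytes 2, and scored 0.532 for early and 0.294 for late spermatocyte markers. Late spermatocytes 2 scored 1.021 for late spermatocyte and 0.767 for round spermatid markers. The place of both clusters between the classes is uncertain. No marker stood among the 10 leading genes of these 2 clusters, of round spermatids 1 and 2 or of elongating spermatids 1. Of the markers measured, 14 of 16 for spermatogonia, 10 of 14 for early spermatocytes, 7 of 12 for late spermatocytes, 14 of 15 for round and 14 of 14 for elongating spermatids were highest in their own class.

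Peritubular myoid cells, the contractile cells around the tubules, served as a measure of free RNA. They numbered 94, 95 and 95 and should lack every one of these genes. Piwil1 stood there at 7.06, 12.7 and 12.8 CPM, at most 1.33% of its highest germ cell stage. Mael reached 108 CPM and Tdrd6 44.5 CPM in these cells, 11.8% and 15.4% of the peak of each. A germ cell level at or below the myoid level is not told apart from free RNA by CPM, and is not read as absence. Myoid cells were shallower, with a median of 6087.5 UMIs against 27782 and 33179 in round spermatids 1 and 2. Per cell, Piwil1 had 0.0426, 0.0632 and 0.0947 UMIs in myoid cells. It had 0.217, 0.210 and 0.282 UMIs per cell in round spermatids and 0.0767, 0.0760 and 0.0946 in elongating spermatids.

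The PIWI genes had their highest levels in different stages, and Piwil2 and Piwil1 were both high in early spermatocytes 2. Piwil4 (chr9:14696230-14740733, minus strand) was sparse: spermatogonia held 9, 12 and 16 of its UMIs, which is 3.39, 4.02 and 4.25 CPM. The other 11 stages together held 1, 2 and 1 UMIs, and all 11 lay at or below the myoid level. Its signal was therefore seen in spermatogonia of each library, with levels that overlapped between genotypes.

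Piwil2 (chr14:70372477-70429383, minus strand) was already present in spermatogonia, at 77.6, 81.7 and 75.6 CPM, and in early spermatocytes 1, at 87.5, 95.9 and 103 CPM. Its highest level lay in early spermatocytes 2, at 386, 357 and 358.5 CPM. In each library these cells were above both earlier stages, with 4.37, 3.70 and 3.45 times the level of early spermatocytes 1 (here and below, ratios were taken with 1 CPM added to each level). In early spermatocytes 3 the level was 111, 109.5 and 102 CPM, in late spermatocytes 1 it was 40.6, 38.0 and 37.2 CPM, and from round spermatids on it was at or below the myoid level. Genotypes overlapped at the peak, where the knockout library lay between the wildtype libraries.

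Piwil1 (chr5:128702524-128755474, plus strand) came up in a single stage. It stood at 14.3, 20.1 and 14.3 CPM in spermatogonia and at 17.0, 19.5 and 24.2 CPM in early spermatocytes 1, close to the myoid level. In early spermatocytes 2 it stood at 890.2, 850.1 and 687 CPM, which is 49.4, 41.5 and 27.3 times the stage before, and in early spermatocytes 3 at 959, 961 and 765 CPM. Wildtype libraries overlapped in their counting intervals at the peak (942 to 976 and 943 to 979.5 CPM), and the knockout library lay below both (752 to 779 CPM). The level was 282, 308 and 246 CPM in late spermatocytes 1 and 20.9, 16.7 and 16.0 CPM in late spermatocytes 2. From round spermatids on all libraries were at or below the myoid level. Ordered by wildtype mean, early spermatocytes 3 (960.2 ± 1.61 CPM, SD, n = 2) stood above early spermatocytes 2 (870.2 ± 28.4) and late spermatocytes 1 (295 ± 18.3), while late spermatocytes 2, early spermatocytes 1 and spermatogonia overlapped between the wildtype libraries.

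**Figure D1:**
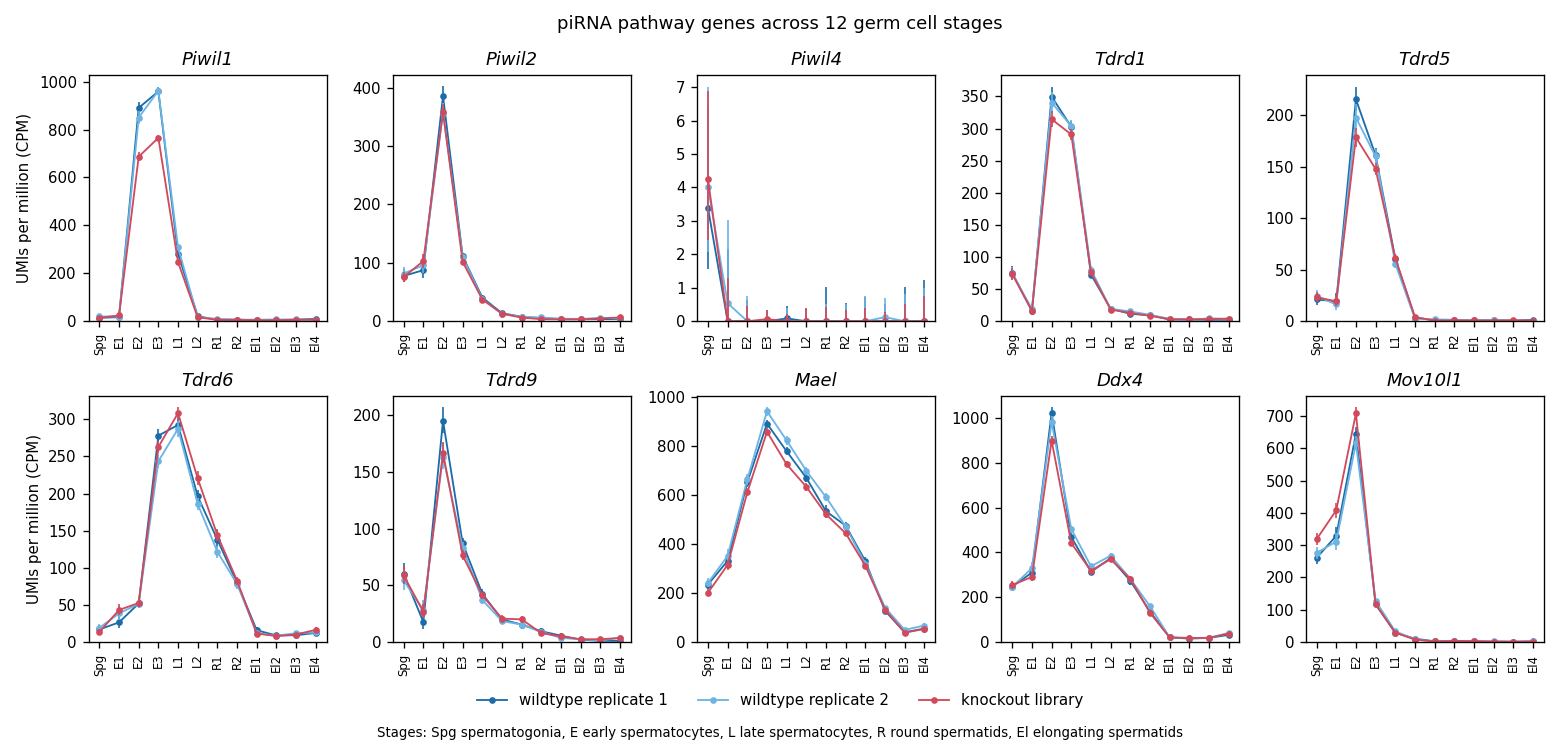
Each panel plots one gene's level (CPM, linear axis from 0) against the 12 ordered germ cell stages for the 3 libraries, with exact 95% Poisson intervals as vertical bars. Piwil2, Tdrd1, Tdrd5, Tdrd9, Ddx4 and Mov10l1 are highest in early spermatocytes 2 (E2), Piwil1 and Mael in early spermatocytes 3 (E3), Tdrd6 in late spermatocytes 1 (L1) and Piwil4 in spermatogonia, in each library.

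The helicases were present before meiosis and highest in early spermatocytes 2. Mov10l1 (chr15:88982909-89055152, plus strand), the helicase that feeds precursors into processing, stood at 261, 276 and 318 CPM in spermatogonia and at 329, 311 and 408 CPM in early spermatocytes 1. It reached 645, 616 and 708 CPM in early spermatocytes 2 and was 117, 127 and 116 CPM in the next stage, 0.183, 0.208 and 0.166 times the peak. The knockout library was the highest of the 3 in each of the first 3 stages, with counting intervals above those of both wildtype libraries. It was the lowest or between them in the next 2. The part of the makeup of each cluster in this difference was not tested, and levels by pseudotime bin are given below. From round spermatids on Mov10l1 was at or below the myoid level.

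Ddx4 (chr13:112598333-112652475, minus strand), the germ cell RNA helicase VASA of the nuage, had the same peak on a broader base. It stood at 248, 246 and 254.5 CPM in spermatogonia, 1023, 983 and 899.8 CPM in early spermatocytes 2 and 374.5, 385.5 and 370.0 CPM in late spermatocytes 2. Round spermatids 1 still held 273.5, 282 and 283 CPM, above the highest myoid level of 44.5 CPM, and elongating spermatids did not exceed it. In 8 stages Ddx4 was at 20 CPM or more and above the myoid level. The knockout library was below both wildtype libraries in 5 of them, the peak among them, above both in 2, and at 88.3% to 103% of the wildtype mean over the 8. Over all genes it was below both in 34.4% of such pairs of a gene and a stage and above both in 41.1%.

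Tdrd9 (chr12:111971559-112068854, plus strand), which joins a Tudor domain to a helicase domain and acts with PIWIL4, was present in spermatogonia at 59.9, 54.2 and 58.6 CPM. It was lower in early spermatocytes 1, at 17.6, 28.2 and 26.7 CPM, before its peak of 195, 163 and 167 CPM in early spermatocytes 2. Wildtype replicate 1 was the highest library at this peak, and wildtype replicate 2 and the knockout library overlapped.

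Tdrd1 was also low in the preleptotene-like cells. Tdrd1 (chr19:56826209-56870012, plus strand), a nuage scaffold that binds PIWIL2, stood at 75.3, 74.3 and 73.2 CPM in spermatogonia, 15.9, 19.0 and 16.1 CPM in early spermatocytes 1, and 350, 340.5 and 315 CPM in early spermatocytes 2. All 3 libraries were lower in early spermatocytes 1 than on either side, at 0.221, 0.265 and 0.231 times the level of spermatogonia. Tdrd5 (chr1:156255296-156303664, minus strand), needed for the processing of pachytene precursors, stood at 21.1, 24.4 and 23.4 CPM in spermatogonia, 19.4, 16.3 and 19.3 CPM in early spermatocytes 1, where counting intervals overlapped those of spermatogonia, and 215, 198 and 178 CPM in early spermatocytes 2.

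Tdrd6 had the latest peak of the 10 genes, and Mael was above the myoid level in the most stages, 10 of 12. Tdrd6 (chr17:43615335-43630299, minus strand), a Tudor protein of the spermatid chromatoid body, stood at 52.0, 51.5 and 52.6 CPM in early spermatocytes 2, only just above the highest myoid level, and at 278, 243 and 263 CPM in early spermatocytes 3. Its peak lay in late spermatocytes 1, at 292, 287 and 308 CPM, and round spermatids 1 held 138, 121.5 and 144 CPM. Spermatogonia, early spermatocytes 1 and elongating spermatids lay at or below the myoid level. In 5 of the 6 stages above it the knockout library was the highest of the 3, at 101% to 115% of the wildtype mean over the 6. Over all genes it was the highest in 41.1% of pairs of a gene and a stage above the myoid level. Early spermatocytes 2 are 1 of the 5, and there the counting intervals of the 3 libraries overlapped.

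Mael (chr1:166201201-166238747, minus strand), the Maelstrom protein of the nuage, was above the myoid level in spermatogonia, at 235, 242 and 201 CPM. It peaked in early spermatocytes 3 at 893, 943 and 859.5 CPM, and elongating spermatids 1 still held 331, 320 and 312 CPM. Elongating spermatids 2 held 128, 141 and 133 CPM. That is above the myoid level, while interstitial mesenchymal cells held 79.4, 182 and 162 CPM. No pair of neighbours in its order of 12 stages overlapped between the wildtype libraries, against 1 to 10 pairs for each of the other genes. In 9 of the 10 stages above the myoid level the knockout library was the lowest of the 3, at 84.5% to 99.0% of the wildtype mean over the 10. Over all genes it was the lowest in 34.4% of pairs of a gene and a stage above the myoid level. In myoid cells Mael stood at 107.6, 108 and 93.9 CPM, with overlapping counting intervals. The knockout library was 87.1% of the wildtype mean there, so the direction was also that of the free RNA.

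Counting UMIs per cell in place of CPM moved some of these peaks. Cells of late spermatocytes 1 and early spermatocytes 3 had the highest median depths, 85040 and 52225 UMIs. Piwil1 had 58.8, 39.5 and 46.1 UMIs per cell in early spermatocytes 3, its highest stage by this measure too. Piwil1, Piwil2, Piwil4, Tdrd6 and Mov10l1 kept their highest stage in each library. Tdrd1 and Tdrd5 moved to early spermatocytes 3 and Mael to late spermatocytes 1 in each library, and Tdrd9 and Ddx4 moved in a way that differed between libraries.

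The 12 stages were then joined into 5 classes (spermatogonia, early and late spermatocytes, round and elongating spermatids) for counts against all genes. A gene was called rising or falling from one class to the next where its CPM, with 1 added, differed at least 2-fold in each wildtype library, among genes of at least 20 CPM in 1 of the classes. From spermatogonia to early spermatocytes, 7 of the 9 genes tested rose (Piwil1, Piwil2, Tdrd1, Tdrd5, Tdrd6, Mael and Ddx4), beside 21.9% of all 8373 genes, and 0 fell, beside 29.8%. The rise of Piwil1 was 56.4-fold and 39.7-fold in the wildtype libraries and 43.3-fold in the knockout library. Mov10l1 was near level between these classes (1.08-fold, 1.01-fold and 1.02-fold): its peak and its later low level both lie inside early spermatocytes.

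From early to late spermatocytes 0 of the 9 rose, beside 19.2% of 7290 genes, and 6 fell (Piwil1, Piwil2, Tdrd1, Tdrd5, Tdrd9 and Mov10l1), beside 27.5%. Late spermatocytes to round spermatids gave 0 rises, beside 28.1% of 6936 genes, and 7 falls (the same 6 and Tdrd6), beside 31.8%. At the last step the 3 genes still tested, Tdrd6, Mael and Ddx4, all fell, beside 60.8% of 5545 genes, and none rose, beside 8.3%. Piwil4 was under 20 CPM in every class and entered no count. Clusters were built from other genes of the same cells, so these counts describe the profile and are no test.

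Along 20 bins of pseudotime (15 from spermatogonia to round spermatids and 5 within elongating spermatids), the peaks followed an order. Mov10l1 peaked in bin 5 in each library. Piwil2, Tdrd5, Tdrd9 and Ddx4 peaked in bin 6 and Piwil1 and Tdrd1 in bin 7, also in each library, while Tdrd6 peaked in bin 8 in wildtype replicate 1 and in bin 9 in the others. The window in which Piwil1 held at least 50% of its peak was bins 6 to 8 in each library, with a peak of 1320, 1191 and 991 CPM. Mael held 50% of its peak from bin 5 to bin 15 in each library, 11 bins against 3 for Piwil1. Bin 5, of which 78.2% were early spermatocytes 2, held 111, 121 and 181 cells. Mov10l1 stood there at 1180, 1174 and 1191 CPM, and in bin 6 at 604.5, 560 and 549 CPM. In bins 1 and 4 it stood at 274, 276.5 and 350 CPM and at 326, 300 and 410 CPM. The part of the order of cells within a cluster in the Mov10l1 levels was not tested.

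**Figure D2:**
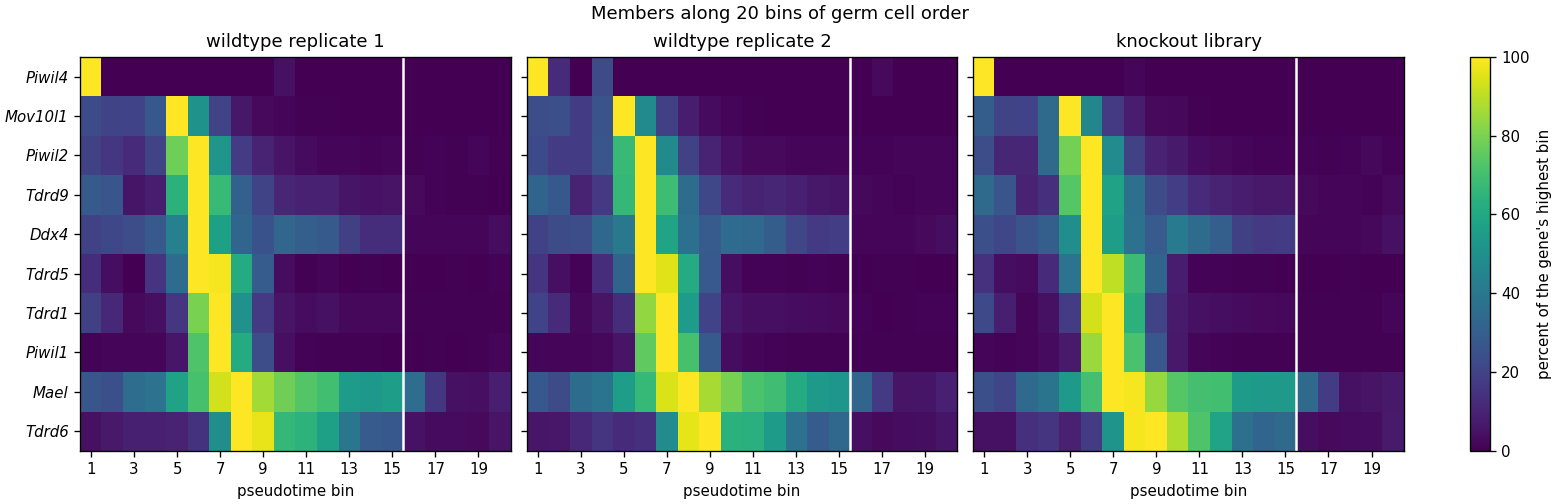
The heat maps show, for each library, every gene's CPM in 20 pseudotime bins as a percent of that gene's own highest bin; the white line parts the bins of elongating spermatids, ordered on their own. The bright cells step from Piwil4 (bin 1) and Mov10l1 (bin 5) to Piwil1 and Tdrd1 (bin 7) and on to Tdrd6 (bins 8 and 9), with the same peak bin in the 3 libraries except for Mael and Tdrd6.

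Shapes were compared as a description, by Pearson's r of log2(CPM + 1) over the 12 stages of the wildtype mean, which share libraries and depth. Among the 36 pairs that leave out Piwil4, Piwil2 and Mov10l1 were most alike (r = 0.978), followed by Tdrd1 and Tdrd9 (0.968) and Tdrd1 and Tdrd5 (0.951). Tdrd6 and Mov10l1 were least alike among these pairs (0.27). Piwil4 gave values from -0.241 with Tdrd6 to 0.446 with Mov10l1. Among 10764 other genes, Chst1 (0.996), Lypd10 (0.994) and Gm50166 (0.993) had the profiles closest to Piwil1, and Ppp1cb (0.995), Rpap3 (0.994) and Apbb3 (0.992) those closest to Piwil2. Those closest to Piwil4 were Pou3f1 (0.999), Ascl2 (0.999) and Gng13 (0.997), all highest in spermatogonia. Piwil4 itself never reached 20 CPM, so its shape rests on few counts.

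Start regions are shown because 8 of the 10 genes, all but Piwil4 and Tdrd6, had their highest stage in early spermatocytes 2 or 3. RefSeq windows on GRCm38.p6, from 250 bases before to 50 after a start site, were found for 8 of the 10 genes, not for Piwil2 and Tdrd6, and were searched on both strands for TAACNG, the core letters bound by MYB proteins such as the one encoded by Mybl1, and for CACGTG, an E-box, the kind of site bound by basic helix-loop-helix proteins. The 6 genes of that group with 1 window each are printed, while Tdrd1 had 3 windows. Capitals mark the matches, and each window is written 5′ to 3′ on the strand of its gene. Piwil1, Mov10l1 and Mael hold both, Tdrd5 holds TAACNG alone, and Ddx4, Tdrd1 and Tdrd9 hold CACGTG alone.
Piwil1 (chr5:128735996-128736295, plus strand): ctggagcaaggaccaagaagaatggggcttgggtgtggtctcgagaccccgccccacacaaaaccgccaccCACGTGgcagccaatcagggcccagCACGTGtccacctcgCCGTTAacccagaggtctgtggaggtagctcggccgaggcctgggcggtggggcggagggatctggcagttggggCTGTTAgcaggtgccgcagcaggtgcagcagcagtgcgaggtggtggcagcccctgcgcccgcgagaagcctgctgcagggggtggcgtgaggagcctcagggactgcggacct
Mov10l1 (chr15:88982744-88983043, plus strand): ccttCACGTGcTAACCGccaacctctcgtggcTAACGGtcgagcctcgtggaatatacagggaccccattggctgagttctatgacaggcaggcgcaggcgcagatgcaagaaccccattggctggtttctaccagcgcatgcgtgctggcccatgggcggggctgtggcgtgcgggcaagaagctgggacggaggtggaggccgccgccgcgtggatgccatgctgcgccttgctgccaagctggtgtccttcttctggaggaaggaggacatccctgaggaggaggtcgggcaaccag
Mael (chr1:166238695-166238994, minus strand): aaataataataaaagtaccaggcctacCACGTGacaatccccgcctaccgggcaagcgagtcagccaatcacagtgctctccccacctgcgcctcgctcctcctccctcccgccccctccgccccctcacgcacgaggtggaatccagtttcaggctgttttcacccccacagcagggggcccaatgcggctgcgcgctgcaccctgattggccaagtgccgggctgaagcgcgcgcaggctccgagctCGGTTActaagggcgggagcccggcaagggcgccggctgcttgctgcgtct
Tdrd5 (chr1:156303299-156303598, minus strand): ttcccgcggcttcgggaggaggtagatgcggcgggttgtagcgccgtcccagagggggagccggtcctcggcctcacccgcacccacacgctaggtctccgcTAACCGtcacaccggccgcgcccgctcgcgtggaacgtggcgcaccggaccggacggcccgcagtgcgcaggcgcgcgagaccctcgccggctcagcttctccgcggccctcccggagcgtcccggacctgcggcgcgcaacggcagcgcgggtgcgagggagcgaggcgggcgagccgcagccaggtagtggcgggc
Ddx4 (chr13:112652261-112652560, minus strand): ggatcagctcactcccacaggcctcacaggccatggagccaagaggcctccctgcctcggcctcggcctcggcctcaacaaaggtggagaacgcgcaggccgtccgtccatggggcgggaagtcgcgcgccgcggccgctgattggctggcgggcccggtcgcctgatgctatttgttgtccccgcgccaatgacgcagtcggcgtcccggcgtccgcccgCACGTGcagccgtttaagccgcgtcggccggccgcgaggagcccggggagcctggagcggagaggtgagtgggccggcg
Tdrd9 (chr12:111971309-111971608, plus strand): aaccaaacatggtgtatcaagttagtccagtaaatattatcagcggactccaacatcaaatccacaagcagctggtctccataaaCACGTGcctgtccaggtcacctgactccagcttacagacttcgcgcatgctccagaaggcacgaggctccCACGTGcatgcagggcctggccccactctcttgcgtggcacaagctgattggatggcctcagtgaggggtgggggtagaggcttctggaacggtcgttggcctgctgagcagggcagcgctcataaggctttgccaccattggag

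The Piwil1 window holds 2 matches of each motif, all before the start site. The Mov10l1 window holds 2 of TAACNG and 1 of CACGTG, close together near its upstream end, and the Tdrd9 window holds 2 of CACGTG. The motifs share no overlapping letters in these windows. Of all 27025 genes with a window, 25.9% held TAACNG in any of their windows, 8.09% held CACGTG and 1.66% held both in 1 window; here 4, 6 and 3 of the 8 genes did. Piwil4 had 2 windows, and they held neither. These matches describe letters and are not measured binding sites. They were not compared with genes that peak in the same stages, so a link between motif and stage was not tested. The motif search was not among the planned analyses.

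Within spermatogonia, Piwil4, Tdrd1, Tdrd5 and Mael were higher in 1 small group of cells. The 772 cells parted into 8 sub-clusters, again without the piRNA pathway genes, and 1 of them, with 24, 29 and 28 cells, had the highest level of all 7 markers of undifferentiated spermatogonia (Gfra1, Zbtb16, Etv5, Id4, Nanos3, Ret and Upp1). This undifferentiated-like sub-cluster held 27 of the 37 Piwil4 UMIs of the spermatogonia. Piwil4 stood there at 21.2 (9.16 to 41.8), 15.8 (6.33 to 32.4) and 22.3 (11.5 to 39.0) CPM, from 8, 7 and 12 UMIs in 6, 7 and 9 cells, and in the other spermatogonia at 0.439 (0.0111 to 2.45), 1.97 (0.639 to 4.59) and 1.24 (0.337 to 3.17) CPM. The intervals of the 2 groups of cells did not overlap in any library, those of the genotypes did, and the level in the other spermatogonia was near the 1.76 CPM of the highest myoid library.

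Tdrd5 stood at 61.0, 56.3 and 46.5 CPM in the undifferentiated-like cells against 14.5, 18.9 and 19.5 CPM in the others, a ratio of 4.0, 2.88 and 2.32. Tdrd1 stood at 130.0, 130.5 and 117 CPM against 66.3, 64.5 and 65.9 CPM, and Mael at 337, 337.5 and 272 CPM against 218, 225 and 190 CPM. These 3 genes were higher in the undifferentiated-like cells in each library, with counting intervals that did not overlap those of the other spermatogonia. The intervals of Piwil1, Tdrd6 and Tdrd9 overlapped between the groups of cells in each library. Piwil1 stood at 13.3, 20.2 and 14.9 CPM against 14.5, 20.1 and 14.2 CPM. Tdrd9 stood at 0.921, 0.901 and 0.670 times the level of the other spermatogonia and Tdrd6 at 0.769, 1.21 and 1.11 times. Piwil2 was 1.15, 1.94 and 1.6 times and Ddx4 1.12, 1.22 and 1.32 times as high, with intervals apart for Piwil2 in wildtype replicate 2 and the knockout library and for Ddx4 in the knockout library. Mov10l1 in the undifferentiated-like cells was 318 (264 to 381) and 315 (265 to 372) CPM in the wildtype libraries and 454 (399 to 515) CPM in the knockout library. That is a log2 ratio of 0.51 and 0.53, with counting intervals apart, in under 50 cells per library, fewer than the rules for genotype differences below required. The markers that define the sub-cluster moved too: 5 of the 7 were above both wildtype libraries in the knockout library and 1 was below both, and their summed level was 324, 374 and 456 CPM. Zbtb16, for example, stood at 117, 110 and 173 CPM. The part of the sub-cluster's makeup in the Mov10l1 difference was not tested.

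**Figure D3:**
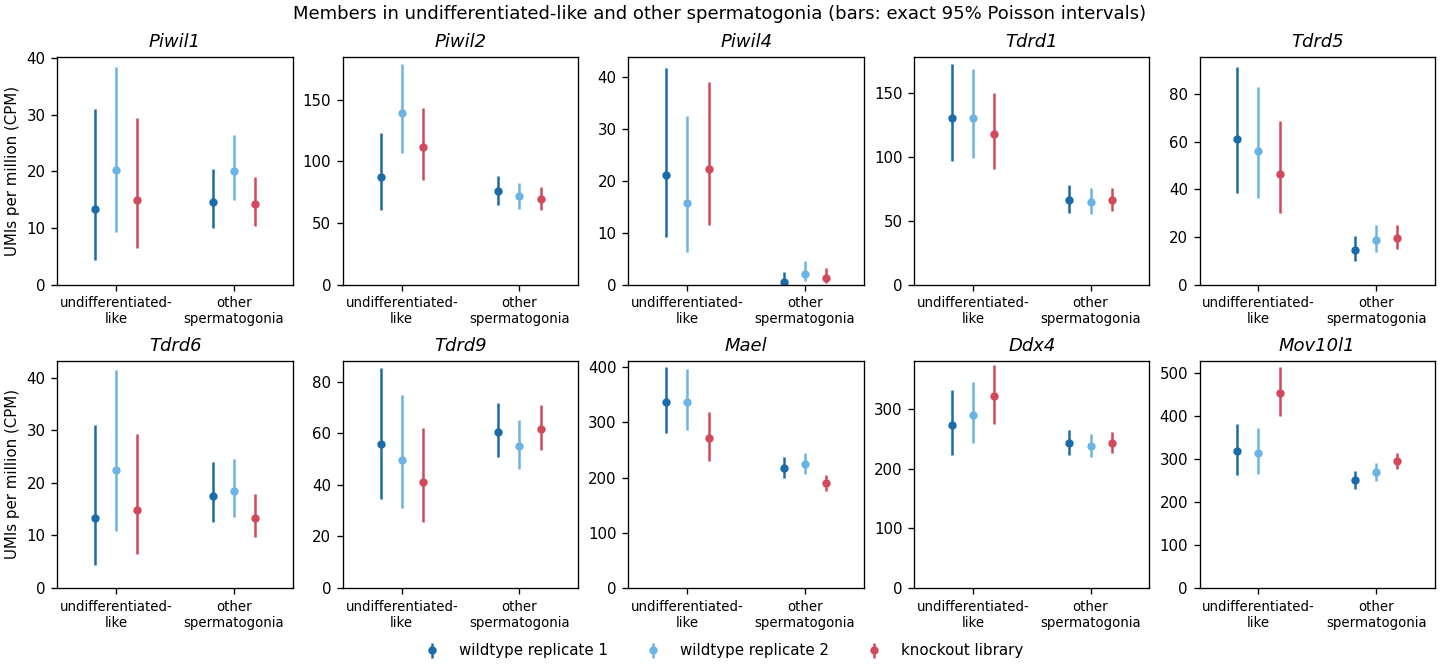
Each panel plots one gene's CPM (linear axis from 0) in the undifferentiated-like sub-cluster and in all other spermatogonia, 1 point per library with its exact 95% Poisson interval. Piwil4 is near 0 outside the undifferentiated-like cells, and Tdrd1, Tdrd5 and Mael are higher in them in each library.

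The share of cells with a UMI was compared after thinning each cell to 2000 UMIs and leaving out shallower cells (0 to 6 per stage and library in those given here). Piwil1 was found in 3.14% (95% exact binomial interval 1.27 to 6.36), 3.57% (1.80 to 6.30) and 4.66% (2.35 to 8.19) of spermatogonia, against 3.19% (0.663 to 9.04), 5.62% (1.85 to 12.6) and 3.19% (0.663 to 9.04) of myoid cells. The spermatogonial share was thus not told apart from the myoid share. Median depths before thinning were 11060, 8473 and 14625.5 UMIs in these spermatogonia and 6006.5, 5355 and 7355 in the myoid cells. In early spermatocytes 2 the share was 54.3%, 53.1% and 44.8%, and in early spermatocytes 3 it was 84.2% (78.6 to 88.8), 87.0% (82.4 to 90.7) and 70.7% (64.8 to 76.2). The knockout interval at that stage lay below both wildtype intervals. These intervals cover the sampling of cells within a library and not the spread between mice or libraries. Unthinned, the shares in early spermatocytes 3 were 99.5%, 100% and 97.3%. Ddx4 was already found in 37.2%, 40.3% and 37.7% of thinned spermatogonia, against 9.57%, 8.99% and 8.51% of myoid cells.

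Cells of early spermatocytes 2 differed among themselves in Piwil1. The lower quartile of the cells' own CPM was 0, 73.2 and 0, the median was 592.5, 613 and 242, and the upper quartile was 1119, 1081 and 843. Cells under 100 CPM made up 29.6% and 25.9% of the wildtype cells and 39.7% of the knockout cells. In early spermatocytes 3 the medians were 925, 956 and 719 CPM, with 0.930%, 0.361% and 3.02% of cells under 100 CPM. The lower knockout level was thus seen in the middle of the distribution as well as in its low end. Pseudotime bin 5, of which 78.2% were early spermatocytes 2, held 111, 121 and 181 cells, with Piwil1 at 81.8, 62.3 and 72.4 CPM. The part of these cell numbers in the larger share of low cells and in the lower median of early spermatocytes 2 was not tested.

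The comparison of genotypes used rules of size in place of a test. A gene passed the 2-fold rule in a class where the log2 ratio of the knockout library to each wildtype library had the same sign and a size of at least 1, the smaller ratio was at least 2 times the log2 gap between the wildtype libraries, and 1 library reached 20 CPM. A smaller rule asked for a ratio of 5 to 4, either way, in place of 2. By the 2-fold rule 0 genes of the piRNA set passed in any class, of 8 tested in spermatogonia, 9 in early and 9 in late spermatocytes, 3 in round and 2 in elongating spermatids. The share of all genes that passed was 0.352%, 0.42%, 0.974%, 1.05% and 1.38% in these classes. A difference of 2-fold was thus rare among all genes as well.

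By the smaller rule 1 gene passed in 1 class. Piwil1 in early spermatocytes stood at 862 and 835 CPM in the wildtype libraries (849 ± 18.9 CPM, SD, n = 2) and at 663 CPM in the knockout library, from 17802, 15192 and 17752 UMIs. The knockout library lay below both, at 78.1% of the wildtype mean, with log2 ratios of -0.38 and -0.33 against a gap of 0.045 between the wildtype libraries. In this class 4.71% of 6436 genes passed, and 2.05% had a ratio as low or lower. The shares that passed in spermatogonia, late spermatocytes, round and elongating spermatids were 5.32%, 7.93%, 6.28% and 8.48% of all genes, and 0 of the piRNA genes passed in those classes. The Piwil1 ratio is close to the limit, and the call was lost when the clusters of a class were given the same weights in all libraries (log2 ratio -0.33 to the wildtype mean) and when early spermatocytes 3 were counted as late.

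The lower level of Piwil1 was seen at each stage in which it was abundant. The knockout library was 78.9% of the wildtype mean in early spermatocytes 2, 79.7% in early spermatocytes 3 and 83.6% in late spermatocytes 1, below both wildtype libraries each time. Median depth in early spermatocytes 3 was 62755, 40219 and 64848 UMIs, and these cells gave 63.9%, 62.5% and 59.7% of the UMIs of early spermatocytes. Pseudotime bin 5, of which 78.2% were early spermatocytes 2, held 111, 121 and 181 cells. Piwil1 stood there at 81.8, 62.3 and 72.4 CPM, and in bin 6 at 957.5, 899.7 and 843 CPM. In bins 7 and 8 it stood at 1320, 1191 and 991 CPM and at 810, 845 and 705 CPM. The part of depth and of cell makeup in the lower level was not tested, beyond the values within single clusters and bins given here. As whole classes, late spermatocytes gave the opposite direction, with 161, 151 and 168 CPM, a log2 ratio of 0.06 and 0.15. Late spermatocytes 1, the cluster with more Piwil1, made up 29.1%, 22.9% and 41.0% of late spermatocytes. With the clusters weighted alike the class stood at 168, 180.3 and 145.5 CPM.

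In early spermatocytes the knockout library was below both wildtype libraries for 6 of the 9 genes tested, beside 32.5% of all genes, and above both for 1, beside 45.3%. After Piwil1, the lowest was Tdrd5 (164.5, 156 and 143 CPM, 89.4% of the wildtype mean). Ddx4 stood at 611, 618 and 561 CPM (91.4%), Mael at 780, 807 and 728 CPM (91.8%), Tdrd9 at 111, 99.1 and 97.8 CPM (93.0%) and Tdrd1 at 292, 285 and 269 CPM (93.1%). The gene above both was Mov10l1, with 282, 279 and 323 CPM, 115% of the wildtype mean. With the clusters weighted alike it stood at 288, 284 and 313 CPM. It was 119% of the wildtype mean in spermatogonia and 127.5% in the preleptotene-like early spermatocytes 1 taken alone. Apart from Piwil1, each of these was short of the smaller rule in its class. In late spermatocytes 2 of the 9 were below both, beside 36.7% of all genes, and 7 above both, beside 46.2%. For 6 of the 9 genes the knockout library was below both in one class and above both in another, beside 40.2% of the 5190 genes tested in at least 3 classes. Among the 9 genes tested in early spermatocytes the median log2 ratio was -0.10, beside 0.02 over all genes tested, and in late spermatocytes it was 0.14 beside 0.02. Over all 54 pairs of a gene and a stage with at least 20 CPM and above the myoid level, the knockout library was below both wildtype libraries in 28 (51.9%), beside 34.4% of 43426 such pairs over all genes, above both in 14 (25.9%), beside 41.1%, and between them in 12. Pairs of the same gene share libraries and are not independent.

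**Figure D4:**
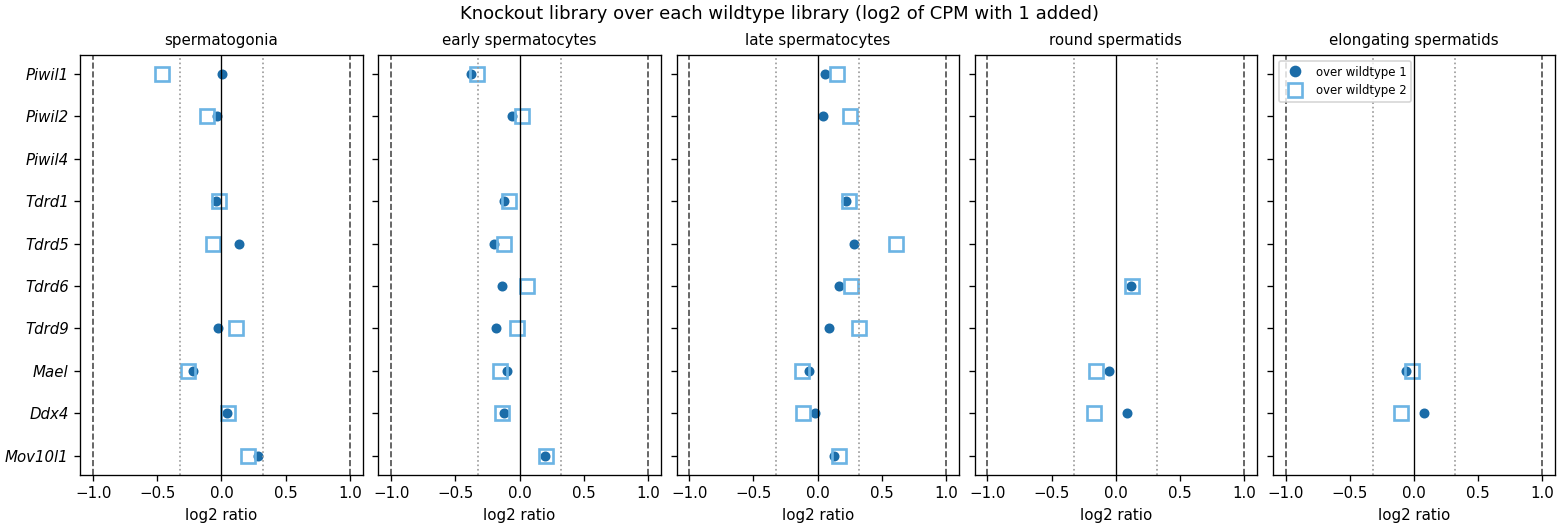
For each of 5 classes the log2 ratio of the knockout library to wildtype replicate 1 (filled circles) and to wildtype replicate 2 (open squares) is plotted for genes of at least 20 CPM in 1 library, with dotted lines at the limit of the smaller rule (a ratio of 5 to 4) and dashed lines at 2-fold. No gene reaches a dashed line, and both ratios of Piwil1 lie past the dotted line in early spermatocytes.

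A list of 23 other piRNA pathway genes was read beside these. From spermatogonia to early spermatocytes 9 of the 19 tested rose, beside 21.9% of all genes, and 5 fell, beside 29.8%. From early to late spermatocytes 0 of 17 rose, beside 19.2%, and 11 fell, beside 27.5%. From late spermatocytes to round spermatids 1 of 15 rose, beside 28.1%, and 9 fell, beside 31.8%. At the last step 0 of 7 rose, beside 8.3%, and 6 fell, beside 60.8%. Ranked by the smaller of the 2 wildtype changes, the largest rises were those of Mybl1, which encodes the transcription factor A-MYB, at 18.2-fold and 27.4-fold in the wildtype libraries and 14.3-fold in the knockout library, and of Pld6, the mitochondrial nuclease that cuts precursors, at 4.50-fold, 6.41-fold and 4.19-fold, both into early spermatocytes. The largest falls by the same ranking were those of Tex19.1 from early to late spermatocytes (log2 -3.98, -3.54 and -4.01) and of Tex15, which acts with PIWIL4 in silencing, from round to elongating spermatids (log2 -3.61, -3.63 and -3.51). Stk31 from late spermatocytes to round spermatids, with log2 -3.87, -3.44 and -4.15, fell further than Tex15 in wildtype replicate 1 and the knockout library.

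Mybl1 stood at 6.03, 3.68 and 7.96 CPM in spermatogonia and at 116, 96.5 and 115 CPM in early spermatocytes 1, the stage before Piwil1 came up, and peaked at 173, 165 and 171 CPM in early spermatocytes 2. The counting intervals of the 3 libraries overlapped at that peak. Tcfl5, a basic helix-loop-helix factor of spermatocytes, was highest in late spermatocytes 1, at 529.6, 556 and 570.0 CPM. Tex15 had 2 separate levels, 1255, 1217 and 977 CPM in early spermatocytes 1 and 105, 100.2 and 103 CPM in round spermatids 1, with 3.41, 3.34 and 6.45 CPM in early spermatocytes 3 between them, and in early spermatocytes 1 the knockout library was 79.0% of the wildtype mean. Gtsf1, a small zinc finger partner of PIWI proteins, was highest in round spermatids 2, at 1715, 1698 and 1700 CPM, where Piwil1 and Piwil2 were at or below the myoid level. Dnmt3l, the gene of the DNA methylation cofactor of fetal silencing, was highest in round spermatids 1, at 51.1, 46.15 and 45.6 CPM. A 3′ count does not show which form of its transcript was counted. These named stages and Stk31, but not the 2 rises and 2 falls, were chosen after their values were seen.

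**Figure D5:**
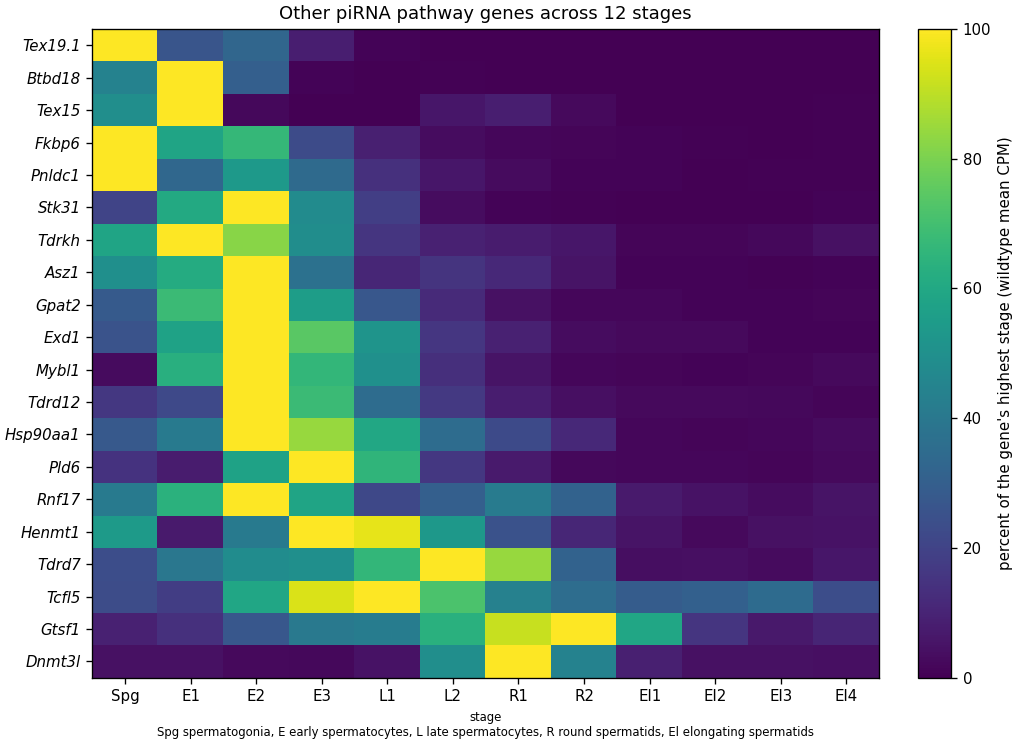
The heat map shows the wildtype mean CPM of 20 other piRNA pathway genes in 12 ordered stages as a percent of each gene's highest stage; Dnmt3c, Morc1 and Spocd1 had a wildtype mean under 20 CPM in every stage and are left out. Tex19.1, Fkbp6 and Pnldc1 are highest in spermatogonia, Mybl1 and Stk31 among others in early spermatocytes 2, and Gtsf1 and Dnmt3l in round spermatids.

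Of the 23, 20 reached 20 CPM in a class and could be tested between genotypes, 17 in spermatogonia, 17 in early and 14 in late spermatocytes, 7 in round and 4 in elongating spermatids. By the 2-fold rule 0 of these passed in any class. By the smaller rule 1 of the 17 passed in spermatogonia, beside 5.32% of all genes, and 0 in the other classes. It was Henmt1, the enzyme that methylates the 3′ ends of piRNAs, at 28.6, 30.5 and 21.0 CPM from 76, 91 and 79 UMIs, named here after its values were seen; 1 of 17 is near the share of all genes. The median log2 ratio of the list was 0.03 in spermatogonia, -0.04 in early spermatocytes and 0.11 in late spermatocytes.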

How the data were processed

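Single-cell RNA-seq of adult mouse testis was read from 3 deposited count matrices, 1 per library, whose values are whole UMI counts per gene and barcode. Per the submitters' processing notes, the authors used Cell Ranger 4.0.0, Seurat 4.0.5 and the mm10 build; the gene annotation, strand setting and any upstream filter are not given in the sources used here. The deposited barcodes had at least 908, 864 and 1381 UMIs.

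Barcodes with at least 1000 UMIs, 500 genes and at most 10% mitochondrial UMIs were kept. The automatic threshold of scrublet marked 0, 1 and 0 barcodes, so the 8% with the highest doublet scores in each library were left out instead. Cells of all libraries were clustered together with scanpy 1.11.5 and leidenalg 0.10.2 (2000 variable genes, 30 components, 15 neighbours, resolution 1) without the 10 genes and the 23 other pathway genes. Clusters whose median was under 3 times the lowest deposited UMI total, a limit set after seeing the data, were kept out, and 1 cluster was left unnamed by a rule added after its leading genes were seen. Clusters were named from fixed marker lists and need 3 detected markers. Diffusion pseudotime over all germ cells folded back on itself, so elongating spermatids were ordered on their own (15 and 5 bins). Myoid cells replaced the planned Leydig cells and macrophages as the measure of free RNA, as the Leydig cluster had 0 cells in wildtype replicate 1. Some of these RNAs stood higher in other somatic groups. Leydig cells held Piwil1 at 163 CPM (127 to 206) in wildtype replicate 2 and at 7.19 CPM in the knockout library. Interstitial mesenchymal cells held Mael at 79.4, 182 and 162 CPM. Which stages count as above free RNA thus depends on the group used.

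Counts were summed per library and stage and divided by that stage's UMI total. No test was run between genotypes, since the knockout is 1 library. Rules of size (1 CPM added, at least 20 CPM in 1 library, at least 50 cells per library) took its place. They were tried on simulated counts with counting error only. These counts held no spread between mice, so the trial does not show how the rules act with such spread. Named genes were all 10, other pathway genes past the 2-fold rule, the 2 with the largest rise and the 2 with the largest fall between classes, the 3 genes most like Piwil1, Piwil2 and Piwil4, and Tex10. The members and lists were chosen with earlier results of these data known. Gene positions are those of GENCODE M21 on GRCm38, the assembly that mm10 names. Genes on the other strand overlap Piwil4 (Gm10706), Tdrd5 (4930518J20Rik) and Tdrd9 (Rd3l), but none overlaps the last 1000 bases of any of the 10. Alternatives were the cell filter, doublets, resolution, clustering genes, low-UMI clusters, cluster weights, normalization, pseudocount, the CPM filter and leaving out a wildtype library, and, chosen after seeing the data, the class of early spermatocytes 3, the class of late spermatocytes 2 and single clusters as stages.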

Additional observations from a re-analysis of the deposited data

Results flagged for a closer look

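RNA of these genes was also present in the clusters of few UMIs, which entered 1 alternative only. Piwil1 stood there at 55.1, 83.5 and 65.9 CPM in the 2 wildtype libraries and the knockout library, above its myoid level of at most 12.8 CPM. Mael stood there at 439, 529 and 439.5 CPM, against at most 108 CPM in myoid cells. These clusters held 54.9%, 39.9% and 64.1% of the barcodes kept.

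For 6 genes the knockout library was below both wildtype libraries in one class and above both in another, of 9 genes tested in at least 3 classes. Among all genes so tested 40.2% did the same. These differences between classes were not tested. The log2 ratio to the wildtype mean was -0.36 in early and 0.105 in late spermatocytes for Piwil1, -0.103 and 0.23 for Tdrd1, -0.16 and 0.44 for Tdrd5, and -0.104 and 0.20 for Tdrd9. Piwil2 had -0.074 in spermatogonia and 0.14 in late spermatocytes, and Ddx4 had -0.13 in early spermatocytes and 0.044 in spermatogonia. Late spermatocytes 1, where Piwil1, Piwil2, Tdrd1, Tdrd5 and Tdrd9 are higher than in late spermatocytes 2, made up 29.1%, 22.9% and 41.0% of the late spermatocytes of the 3 libraries. With clusters weighted alike in all libraries the late values were -0.26 for Piwil1, -0.06 for Piwil2, -0.02 for Tdrd1, 0.09 for Tdrd5 and 0.06 for Tdrd9.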

How the results depend on the processing

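The count of genes past the 2-fold rule between genotypes was 0 under every alternative run. Past the smaller rule (a ratio of 5 to 4), the count of 1 (Piwil1 in early spermatocytes) became 2 with the stricter cell filter (Tdrd6 lower in spermatogonia was added), 0 with clusters of a class weighted alike, and 0 with early spermatocytes 3 counted as late, an alternative chosen after seeing the data. Leaving out a wildtype library gave 1 to 4: without wildtype replicate 1 the calls were Piwil1 lower in spermatogonia and early spermatocytes, and Tdrd5 and Tdrd9 higher in late spermatocytes. With 1 wildtype library the gap between wildtype libraries no longer enters the rule. The log2 ratio of Piwil1 in early spermatocytes ranged from -0.46 to -0.33 over 11 alternatives. The sign of each gene's ratio in its highest class was kept in 11 of 11 alternatives, except for Piwil2 (10 of 11). The count of rises between classes (7) ranged from 6 to 9, and that of genes highest in early spermatocytes (8) from 7 to 8. Mael became highest in late spermatocytes with the stricter cell filter, the higher resolution and the piRNA genes kept for clustering. It did so too when early spermatocytes 3 or late spermatocytes 2 changed class. Mov10l1 became highest in spermatogonia without doublet removal. No paired analysis was possible because the knockout is 1 library and shares at most 1 replicate number with the wildtype libraries. The depth limits Piwil4 most, with 37 UMIs in all spermatogonia.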
